A study of Mus musculus with 8 samples.

Results

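The Speer gene segment is a stretch of mouse chromosome 5 between 15.4 and 15.7 Mb (mm10) that holds a cluster of near-identical genes. The list names 10 genes, 7 of them inside the segment (Gm21149, Gm21847, Gm21190, Gm30613, Gm21083, Gm30417 and Speer4d), 1 just beyond its right end (Speer4c), 1 in the 500 kb to its left (Speer4e) and 1 in another array of the same chromosome (Speer4a). They are 10 of the 34800 genes in the annotation used. The list was chosen with these data in view, because peaks there differed between genotypes. Their difference between the genotypes is therefore a description and was not tested.

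Trimethylation of lysine 27 on histone H3 (H3K27me3), the repressive mark laid down by Polycomb repressive complex 2, was measured by chromatin immunoprecipitation and sequencing in female neural stem cells. The cells came from E14.5 embryos of a C57BL/6 129/Castaneus mix, and all groups had a maternal X of 129 origin with the Xist deltaA allele and a paternal X from Castaneus. All started as Smchd1 del/fl, with 1 deleted and 1 conditional allele. The del/del cells were transduced with MSCV-Cre-puro, a retrovirus that carries Cre recombinase and puromycin resistance, selected with puromycin from 24 hours on and harvested 7 days after transduction. The del/fl cells were left untransduced, so deletion and transduction with selection cannot be told apart. Of 8 samples, 4 were H3K27me3 libraries, 2 from del/del and 2 from del/fl, and each had a whole-cell extract as its control. Each established line was divided between transduction and control, so a del/del and a del/fl library may share a line. The labels do not tell which, and nothing says that the 2 libraries of a group came from separate embryos. Values are for both alleles together.

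Speer genes (spermatogenesis associated glutamate-rich proteins) are rodent genes known for their expression in male germ cells, and they lie in tandem arrays of recent copies. Polycomb repressive complex 2 methylates histone H3 over silent genes in broad domains, often at promoters rich in CG. Smchd1 is a chromatin protein known for its part in X inactivation and in silencing at several clustered autosomal gene families.

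The copies were first compared by sequence. RefSeq promoter windows (GRCm38.p6, from 250 bases before to 50 bases after the gene start) were found for 8 of the 10 listed genes, and Gm21847 and Gm30417 had none. Among 32619 promoter windows of the table, 24 aligned to that of Speer4d over at least 150 bases with at least 80% identity, and all 24 were on chromosome 5. They included 7 listed genes, whereas the window of the lncRNA Gm30613 was not among them. Sequences of 5 genes are shown because they span the range of H3K27me3 outcomes described below. Speer4d (plus strand, chr5:15618849-15619148), Gm21149 (minus strand, chr5:15476487-15476786) and Gm21083 (plus strand, chr5:15577043-15577342) had peaks over their genes in del/del cells, and Speer4e (minus strand, chr5:14938426-14938725) and Speer4a (minus strand, chr5:26039456-26039755) had none in any library. Each is written 5′ to 3′ on the gene's own strand. Capitals mark the longest run of bases shared by the 9 copies at or upstream of the segment, 31 bases long. Speer4a has the same stretch except for a T in place of a C, so its letters are not in capitals.
Speer4d: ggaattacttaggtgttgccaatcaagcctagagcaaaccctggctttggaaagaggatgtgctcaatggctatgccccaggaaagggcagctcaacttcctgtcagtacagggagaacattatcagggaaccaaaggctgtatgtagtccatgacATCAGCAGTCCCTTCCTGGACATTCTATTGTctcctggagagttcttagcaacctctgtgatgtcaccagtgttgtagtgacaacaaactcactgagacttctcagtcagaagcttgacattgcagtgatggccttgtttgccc
Gm21149: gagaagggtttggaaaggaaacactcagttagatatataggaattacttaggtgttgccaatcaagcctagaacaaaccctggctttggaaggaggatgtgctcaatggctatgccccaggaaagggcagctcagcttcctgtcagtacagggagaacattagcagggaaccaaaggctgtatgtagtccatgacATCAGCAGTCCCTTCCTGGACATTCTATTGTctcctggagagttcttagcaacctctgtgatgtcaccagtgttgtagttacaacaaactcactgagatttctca
Gm21083: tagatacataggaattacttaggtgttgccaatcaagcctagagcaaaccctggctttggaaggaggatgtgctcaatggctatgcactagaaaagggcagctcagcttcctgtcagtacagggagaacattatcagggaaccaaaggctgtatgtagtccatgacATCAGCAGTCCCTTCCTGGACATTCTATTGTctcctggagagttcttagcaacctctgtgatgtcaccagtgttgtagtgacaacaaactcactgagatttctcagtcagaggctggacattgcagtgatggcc
Speer4e: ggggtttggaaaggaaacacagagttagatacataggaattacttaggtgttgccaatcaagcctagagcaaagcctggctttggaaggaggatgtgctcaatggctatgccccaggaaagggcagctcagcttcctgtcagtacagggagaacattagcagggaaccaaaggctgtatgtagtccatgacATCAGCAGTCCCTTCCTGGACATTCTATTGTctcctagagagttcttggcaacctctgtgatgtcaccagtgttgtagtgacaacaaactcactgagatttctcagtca
Speer4a: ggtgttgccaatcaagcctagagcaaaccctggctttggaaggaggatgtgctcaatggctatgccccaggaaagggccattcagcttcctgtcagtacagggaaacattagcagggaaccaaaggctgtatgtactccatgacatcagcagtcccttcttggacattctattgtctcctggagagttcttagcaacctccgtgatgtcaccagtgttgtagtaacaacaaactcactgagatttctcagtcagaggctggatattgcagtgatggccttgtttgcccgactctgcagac

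The capital run, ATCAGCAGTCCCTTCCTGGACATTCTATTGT, occurred on either strand in 10 of the 32619 promoter windows (0.0307%), namely the 9 copies from which it was derived and Gm7361 of the array near 26 Mb. The 8-base palindrome TGACGTCA, the cAMP response element, was in 0 of the 24 related promoters and in 1.80% of all promoters. Its variant TGATGTCA, searched on both strands, was in 24 of 24 and in 3.18% of all. The letters TATAAA were in 0 of 24 and in 13.7% of all. These matches describe letters in a window of 300 bases and are not binding sites. The 24 windows were picked by their likeness to that of Speer4d. Letters they share or lack, CG included, are thus those of related copies and not 24 separate observations. CG content was low throughout the group. All 24 related promoters held 3 or fewer CG, as did 31.0% of all promoters, whose median was 7. Their GC content ran from 44.3% to 50%, below the median of 53.0% over all promoters.

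Peaks came from lists of 32971 and 39982 peaks in the del/del libraries (replicates 1 and 2) and 36934 and 45566 in the del/fl libraries, made from 11793402 to 14064030 tags. Cover, the percent of base pairs under a deposited peak, was 1.34% and 1.79% (del/del) and 1.45% and 1.93% (del/fl) of the autosomes. Among marker genes of cell types, 5 of 6 neural stem cell genes (Sox2, Nes, Vim, Fabp7 and Slc1a3) had no peak in any library, and Pax6 had one. Of 4 neuronal genes, Rbfox3, Tubb3 and Dcx had peaks, and 3 of 4 germ line genes (Ddx4, Dazl and Sycp3) had none in any library. Of 4 astrocyte genes, Gfap and Aldh1l1 had peaks and Aqp4 and S100b had none. Endothelial Cdh5 and microglial Cx3cr1 had peaks, and endothelial Pecam1 and microglial Aif1 had none. A peak in any library was present in 8363 of 33504 autosomal genes, so the lack of one does not mark a cell type. Smchd1 itself had no peak in any list, so the lists do not show the deletion.

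Cover of the segment was 29.3% and 31.6% (del/del) against 2.30% and 3.08% (del/fl). The groups did not overlap, with means of 30.4% ± 1.59 and 2.69% ± 0.552 (SD, n = 2) and a difference of 27.8 percentage points. In length this was 87959 and 94694 bp of peaks in del/del against 6897 and 9238 bp in del/fl. Both the number and the length of the peaks differed. The del/del libraries had 54 and 41 peaks and the del/fl libraries 8 and 9, with median lengths of 1051 and 1321 bp against 517.5 and 755 bp. The longest peak was 11908 bp in del/del replicate 2 (chr5:15557371-15569278) and 6470 bp in del/del replicate 1 (chr5:15556584-15563053), both overlapping the stretch between Gm21190 and Gm30613. In both del/fl libraries the longest lay inside Gm30613, with 2672 bp (chr5:15601343-15604014) and 2561 bp (chr5:15601300-15603860). In bulk chromatin, a mark in more cells and more mark per cell cannot be told apart.

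**Figure D1:**
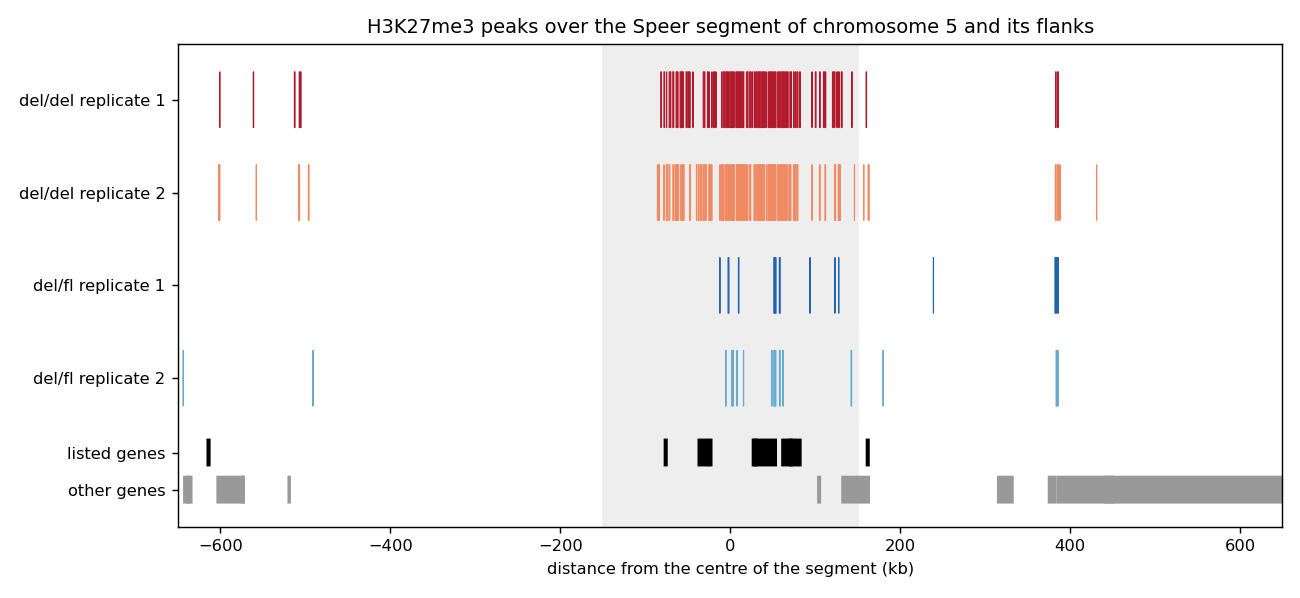
Each coloured bar is a deposited peak of 1 library, placed by its distance in kb from the segment's centre, with the segment shaded and gene spans below (black, listed genes; grey, other genes). The 54 and 41 peaks of del/del crowd the shaded segment, where del/fl has 8 and 9, and all 4 libraries have few peaks in the flanks.

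Within the segment, peaks were spread unevenly. The first 50 kb held none in any library. The next 5 blocks of 50 kb had cover of 24.9% and 25.2%, 30.0% and 41.9%, 65.6% and 70.0%, 38.0% and 40.4%, and 17.4% and 11.9% in the del/del libraries. The del/fl libraries had at most 8.69% in any block, and the highest del/del block, the fourth, had 1.28% and 6.88% in del/fl. Of 30 windows of 10 kb, 20 had both del/del libraries above both del/fl libraries, which held for 0.888% of the 10-kb windows of all autosomes. In 12 of the 30 peaks were present in both del/del libraries but absent from del/fl, against 0.323% of autosomal windows. From the first to the last listed gene in the segment, cover was 48.2% and 52.9% against 3.61% and 5.22%. Cover inside the listed genes of the segment was 48.6% and 55.9% in del/del, near that of the whole stretch from the first to the last listed gene. In the rest of the segment, which includes the first 50 kb without peaks, it was 22.7% and 23.2%. The peaks were thus not limited to the genes.

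Agreement between libraries was moderate. The del/del libraries shared 60731 bp of cover in the segment, which was 69.0% of that in replicate 1 and 64.1% of that in replicate 2. The del/fl libraries shared 3489 bp, 50.6% and 37.8% of theirs. Peaks of all 4 libraries met at 2 spots. One lay in Gm30613 (chr5:15602111-15603860). The peaks over it had fold enrichment of 3.81 and 3.46 (del/del) against 3.20 and 3.18 (del/fl). Their pileup per 1000000 tags was 0.902 and 0.939 against 0.729 and 0.781. The other spot lay just right of Gm30613 (chr5:15607941-15608911), under peaks with fold enrichment of 3.56 and 4.22 against 3.28 and 3.23. At both spots the del/del values exceeded the del/fl values. They are values of whole peaks and not of the spots, and peak lengths ran from 1054 bp (del/fl replicate 2) to 9505 bp (del/del replicate 2).

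Of the listed genes, 5 are protein-coding copies of the Speer4 kind at or beside the segment, and none had a peak in a del/fl library. Speer4d (chr5:15619099-15623864), a named copy of the Speer4 group, had 39.3% and 51.3% of its span covered in del/del. Gm21083 (chr5:15577293-15582092), a gene model with a Speer4-like promoter, had 60.1% and 55.8%. Gm21190 (chr5:15524456-15529222), another such model, had 24.4% and 84.7%, so its libraries differed most among the members. Gm21149 (chr5:15471706-15476536), the leftmost copy, had 22.6% and 39.95%. Speer4c (chr5:15709505-15714298), which lies 9.505 kb beyond the right end of the segment, had 12.1% and 29.6%, the lowest cover of the 5 in either del/del library. Each had 1 or 2 peaks per del/del library. Their fold enrichment over the gene was 2.67 to 3.35 in del/del replicate 1 (Gm21190 and Gm21083) and 2.66 to 3.34 in replicate 2 (Gm21149 and Speer4c).

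The other listed genes in the segment are 3 long non-coding RNA genes of unknown role, which overlap the copies and so share their peaks. Gm30613 (chr5:15575332-15605119), which contains Gm21083, was the most covered member on average, with 65.4% and 66.8% (del/del) against 8.97% and 11.7% (del/fl). It was the sole member with a peak in both del/fl libraries. Gm30417 (chr5:15610032-15634110), which contains Speer4d, had 52.6% and 47.6% (del/del) against 0% and 3.03% (del/fl). Gm21847 (chr5:15511563-15525867), which overlaps Gm21190, had 24.1% and 46.0% in del/del and none in del/fl. All 3 lay above del/fl in both del/del libraries.

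**Figure D2:**
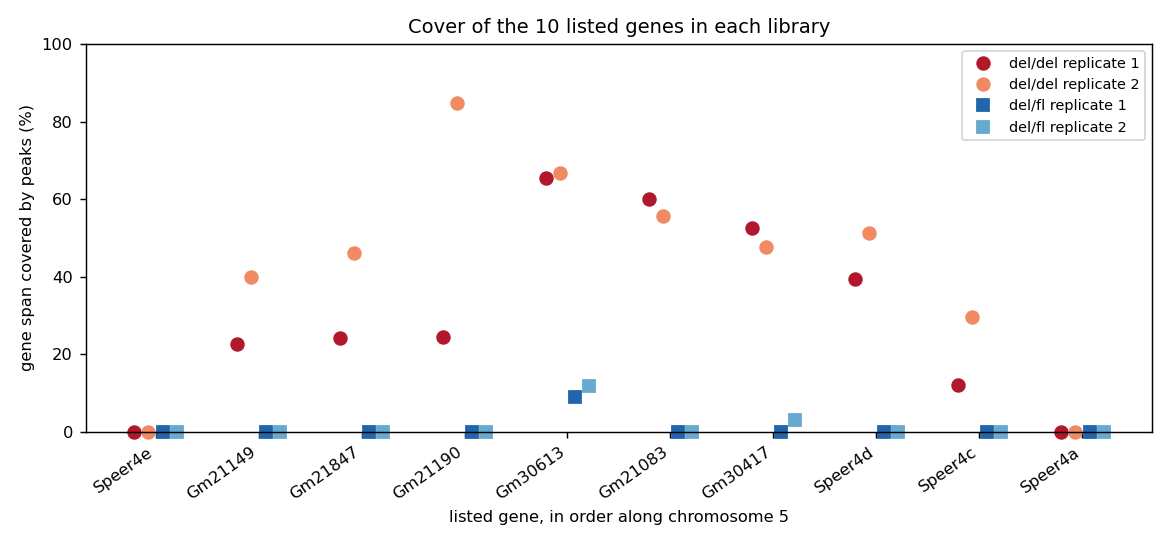
Each point is the percent of a listed gene's span covered by peaks in 1 library, for the 10 genes in order along chromosome 5 (circles, del/del; squares, del/fl). All 8 genes with a peak have both circles above both squares, and Speer4e and Speer4a lie at 0 in all 4 libraries.

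In all, 6 of the 10 members had peaks in both del/del libraries but none in del/fl, where 0.549% of autosomal genes did, and 0 of 10 had the opposite pattern, with 0.6% of autosomal genes. In 8 of 10 both del/del values exceeded both del/fl values, as in 1.69% of autosomal genes. Since this contrast chose the members, nothing is read from these shares. The 7 members in the segment differed by 31.3 to 57.9 percentage points, with a median of 48.6, and the median difference was −0.20 over the 8363 autosomal genes that held a peak somewhere. Overlapping genes among the 7 are not independent. In the order of del/del means, Gm30613 (66.1% ± 0.971) stood first, followed by Gm21083 (57.9% ± 3.11), Gm21190 (54.6% ± 42.6), Gm30417 (50.1% ± 3.59), Speer4d (45.3% ± 8.50), Gm21847 (35.1% ± 15.5), Gm21149 (31.3% ± 12.3) and Speer4c (20.9% ± 12.4; SD, n = 2 for each). The ranges of neighbours in that order overlapped, except that both values of Gm30613 exceeded both of Gm21083.

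The position of the peaks relative to the gene start was not used to choose the members, but their difference between the genotypes was. Over the 5 protein-coding copies, the bins of 500 bases on both sides of the start had mean cover of 0% and 0.240% in del/del replicate 1 and 15.5% and 40% in replicate 2. Cover then varied along the genes. From 1 to 1.5 kb after the start it was 44.2% in replicate 1, where 3 of 5 copies had a peak, and 100% in replicate 2, where all 5 did. From 4 to 4.5 kb it was 73.1% in replicate 1 and 42.3% in replicate 2. From 4.5 to 5 kb, the bin in which the copies end, it was 3.92% and 6.28%. Before the start, from 2 to 1.5 kb upstream, it was 68.3% in replicate 1 and 13.2% in replicate 2. Both del/fl libraries were at 0 in all 25 bins from 5 kb before to 7.5 kb after the start. Inside the genes this repeats that none of the 5 copies had a del/fl peak, and it is no separate result. Of the 5 promoter windows of these copies, those of Gm21149 (94.3%) and Speer4d (68.0%) were covered in del/del replicate 2, and none was in the other 3 libraries. The copies share sequence, so a read can match several of them. How Bowtie treated such reads is not given in the sources used here, and values of single copies are uncertain.

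**Figure D3:**
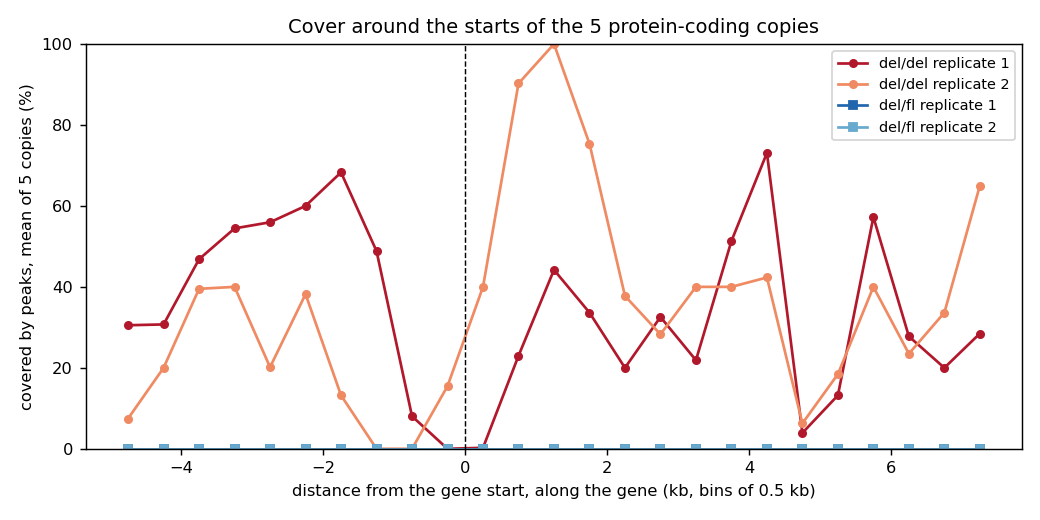
Mean cover of the 5 protein-coding copies at or beside the segment is plotted in bins of 0.5 kb by distance in kb from the gene start (dashed line), along each gene's own strand, with 1 line per library. The line of del/del replicate 1 is lowest in the bins on both sides of the start. That of replicate 2 is at 0 from 1.5 to 0.5 kb before the start and has risen to 40% just after it. Replicate 2 reaches 100% at 1 to 1.5 kb inside the genes, and both del/fl lines stay at 0.

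The peaks in the segment ranked near or below the middle of autosomal peaks by fold enrichment in 3 libraries and slightly above it in 1, and above the middle by pileup in all 4. Mean fold enrichment over the local background, a ratio given by the authors' peak caller and here weighted by peak length, was 3.26 and 3.28 (del/del) against 3.19 and 2.92 (del/fl). The median peak ranked at the 33.5th and 56.1st percentile of autosomal peaks of the same library in del/del and at the 39.8th and 21.4th in del/fl. Mean pileup per 1000000 tags, weighted the same way, was 0.647 and 0.707 (del/del) against 0.650 and 0.660 (del/fl). The median peak ranked at the 73.4th and 87.3rd percentile by pileup in del/del and at the 65.4th and 83.3rd in del/fl. Significance was modest, with −log10 q of 1.17 to 4.73 in del/del and 1.02 to 3.01 in del/fl. The lowest of these values are a q above 0.05, and 0 peaks of the segment reached a −log10 q of 5 in any library.

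Their local background, recovered from pileup and fold enrichment and divided by the genome-wide background of the library, was high in both genotypes. Its mean, weighted by peak length, was 1.51 and 1.58 (del/del) against 1.5 and 1.64 (del/fl), and the groups overlapped. Autosomal peaks had medians of 1.00 to 1.02 in the 4 libraries. A background above 1.5 was found in 50% and 61.0% (del/del) and 25% and 55.6% (del/fl) of the segment's peaks, against 1.63% to 2.54% of autosomal peaks. In del/fl these shares were 2 of 8 and 5 of 9 peaks. The background rests on the whole-cell extract, so control tags were denser here than at most autosomal peaks, in both genotypes. A high mean was not limited to the segment. The 5 and 4 del/del peaks of the left flank had 1.93 and 1.62, and its 2 peaks in del/fl replicate 2 had 1.03. Peaks of the right flank had 1.24 and 1.17 (del/del) and 1.16 and 1.02 (del/fl). The part of this background in the peak calls was not tested.

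**Figure D4:**
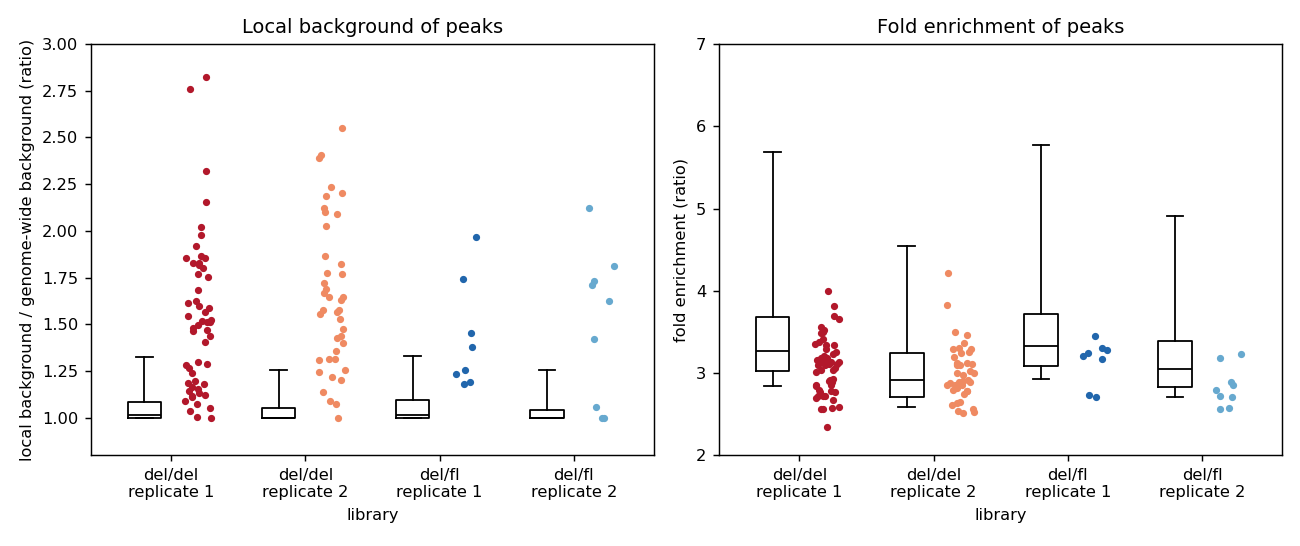
For each library, the box gives the 25th, 50th and 75th percentile of all autosomal peaks, with whiskers at the 5th and 95th, and each dot is a peak of the segment. Local background over the genome-wide value (left) lies above the autosomal box for most dots of every library, with means of 1.5 to 1.64, and fold enrichment (right) falls within the autosomal range for most.

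Arrays of related copies elsewhere on chromosome 5 had less cover in del/del than the segment. Upstream of the segment, Gm9758, Speer4e, Gm10354 and Gm17019 form an array (chr5:14910124-15033016) whose promoters were 96.6% to 97.4% identical to that of Speer4d, against 97.2% to 98.1% for the other 4 copies at the segment. None of these 4 genes had a peak in any library. Cover of the whole array was 0.715% and 1.61% in del/del and 0% in both del/fl libraries, in the same direction as the segment. In an exact permutation test, two-sided, p was 0.333, the smallest that 2 against 2 libraries allow. Part of this cover lay in Speer8-ps1, a transcribed pseudogene of the array, with 1.01% and 4.90% in del/del and none in del/fl (limma adjusted p = 0.657).

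Speer4a belongs to an array of 12 related genes near 26 Mb (chr5:25935658-26264312), with promoters 93.1% to 95.8% identical to that of Speer4d. Speer4a had no peak in any library. In the array, 4 genes had a peak in each del/del library, and 3 and 6 had one in the del/fl libraries. Its cover was 2.88% and 3.997% (del/del) against 3.08% and 3.75% (del/fl), so the groups overlapped (two-sided exact permutation p = 1, mean difference 0.0224 percentage points). Gm1979, whose span was covered in all 4 libraries, had 15.6% and 42.8% (del/del) against 13.7% and 22.6% (del/fl). Speer4f1 and Speer4f2 near 17 Mb, with promoters 85.7% and 85.3% identical, and Speer4b, at 96.6%, had no peak in any library. A difference in cover between the arrays beyond this description was not tested.

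**Figure D5:**
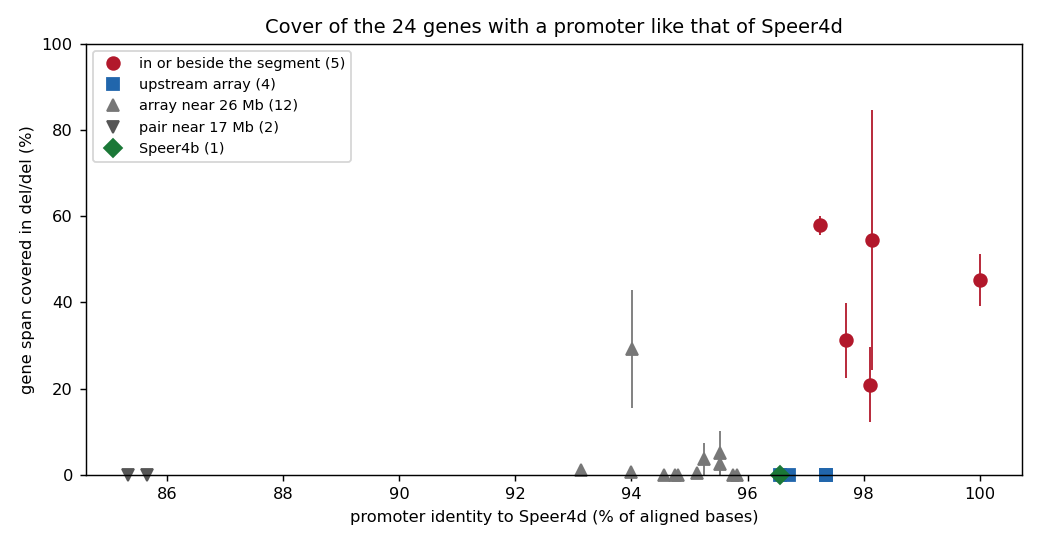
Each of the 24 genes with a promoter like that of Speer4d is placed by the identity of its promoter (x axis, percent of aligned bases) and by its mean cover in del/del (y axis, percent of the gene span), with a line between the 2 libraries. The 5 genes in or beside the segment, Speer4d included at 100%, have means of 20.9% to 57.9%, whereas the 4 genes of the upstream array lie at 0.

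The flanks of the segment were set by distance. Over both flanks of 500 kb together, cover was 0.522% and 0.917% (del/del) against 0.240% and 0.296% (del/fl), with means of 0.719% ± 0.279 and 0.268% ± 0.0398 (SD, n = 2). These values include Speer4c and Speer4e, which are listed genes, so the tests were made with the spans of both cut out, a choice made after the data were seen. Both flanks then had 0.469% and 0.782% against 0.242% and 0.299% (two-sided exact permutation p = 0.333). The left flank had 0.602% and 0.854% against 0% and 0.136% (p = 0.333 in the same exact test). The right flank had 0.335% and 0.710% against 0.484% and 0.462%, and its groups overlapped (exact p = 1). Speer4cos, a transcribed pseudogene that overlaps Speer4c and crosses the right end of the segment, had cover of 7.11% and 6.33% (del/del) against 0% and 2.23% (del/fl), given with no test since it shares peaks with Speer4c and the segment. Gm3510, an lncRNA gene farther right, had 4.61% and 9.78% against 11.7% and 6.37% (limma adjusted p = 0.848). Cacna2d1, a subunit of voltage-gated calcium channels that begins beside it, had 0.267% and 0.465% against 0.223% and 0.282% (limma adjusted p = 0.657). Gm52805, an lncRNA gene at the left edge, had a peak in del/fl replicate 2 alone, over 1.73% of its span (limma adjusted p = 0.657). Inside the segment, the unlisted pseudogene 4930572O03Rik had 15.5% and 18.9% in del/del and none in del/fl.

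limma, fitted on the cover of the 9426 genes with a peak in any library, called 0 genes at an adjusted p under 0.05 (0.0%). At an unadjusted p under 0.05 it had 612 genes higher and 304 lower in del/del, and among the 8363 autosomal genes of the same fit 175 higher and 304 lower. Beyond the listed genes, 11 genes have a Speer name, and 3 of them had a peak in any library. Besides Speer8-ps1 and Speer4cos this was Speer5-ps1, a pseudogene on chromosome 10, with 2.38% and 1.25% (del/del) against 5.28% and 5.26% (del/fl) (limma adjusted p = 0.328). Its direction was opposite to that of the segment. Speer1, Speer2, Speer3 and the pseudogenes Speer6-ps1 and Speer9-ps1 had none.

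Other tandem families, fixed by name, were set beside the Speer genes as a description. Of 47 Pramel and Pramef genes, which are germ line genes, 4 had a peak in any library and 0 had one in both del/del but neither del/fl libraries. Of 128 Vmn2r vomeronasal receptor genes 10 had a peak, with 1 in both del/del libraries alone (Vmn2r55, mean cover 0.574%) and 1 in both del/fl libraries alone (Vmn2r8). Of 43 Defb beta-defensin genes 6 had a peak, and 0 had that pattern in either direction. Over all 33504 autosomal genes, 8363 had a peak in any library. Peaks in both del/del libraries alone were found for 0.549% of them, and in both del/fl libraries alone for 0.6%. At such shares, counts of 0 or 1 do not set these families apart from other genes.

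The mean cover of the 7 members in the segment was 41.2% and 56.0% (del/del) against 1.28% and 2.1% (del/fl). Among 31642 autosomal genes of at least 1 kb outside the segment and its flanks, those with the nearest values over the 4 libraries were Ubxn10, which encodes a UBX domain protein, on chromosome 4 (37.2% and 50.3% against 0% and 7.19%) and the lncRNA genes Gm34332 on chromosome 13 (33.0% and 52.3% against 0% in both), Gm40237 on chromosome 4 (52.1% and 53.7% against 0%) and Gm36434 on chromosome 5 (38.2% and 41.5% against 0%). The fifth was Krt40, a hair keratin gene, on chromosome 11 (47.8% and 42.6% against 6.40% and 10.9%). Their Euclidean distances from the mean profile were 8.73, 9.40, 11.4, 15.0 and 18.1 percentage points. The members themselves lay 5.68 (Speer4d) to 33.3 (Gm21190) points from it, and a gene with no peak lay 69.6 points away. The order rests on 4 libraries and on genes of unequal length.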

How the data were processed

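Per the submitters' processing notes, bcl2fastq and Bowtie 0.12.9 were used, with mm10 as the genome build. Per the file headers, broad peaks were called with MACS2 2.1.0.20140616 for each H3K27me3 library against its whole-cell extract, at a q-value of 0.05, with 1 tag kept per position, the larger data set sampled down to the smaller, and local background over 1000 and 10000 bp. Each deposited peak has the authors' pileup (a signal, the height of stacked tags), their fold enrichment (a ratio to local background) and their p-value and q-value as −log10.

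Cover was computed with Python 3.11.15, numpy 2.4.6 and pandas 2.3.3 over RefSeq gene spans (GRCm38.p6, the same build as mm10). Local background is (pileup + 1) divided by fold enrichment, minus 1. Exact tests used scipy 1.17.1, limma 3.58.1 ran in R 4.3.3 (trended variances, robust, Benjamini-Hochberg adjusted), promoters were aligned with Biopython 1.88, and figures were drawn with matplotlib 3.10.9. P-values cover only the spread among these libraries, which may be technical. The interval code and limma were tested on simulated data.

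The members and lists were chosen with earlier results of these data known. Genes named were the 10 members, all Speer genes, flank genes with a peak, the 5 genes of most similar cover and Smchd1. Related copies were planned from proteins and found from promoters instead, a choice made after the data were seen. Genes of the comparison families and promoter relatives were named after their values were seen. Alternatives were stricter peaks, lists of equal length, joined peaks, other spans, other fits, a replicate block and leaving out each library.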

Additional observations from a re-analysis of the deposited data

How the results depend on the processing

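The segment's difference of 27.8 percentage points ran from 26.6 to 28.9 when single libraries were left out and was 27.8 with lists of equal length. It became 44.9 with peaks within 3 kb joined, and 46.1 from the first to the last listed gene. With peaks of −log10 q of at least 5 it was 0, the flank difference was 0 and 0 members were left, since 0 of the segment's peaks reach that level. The flank difference of 0.452 was 0.355 with the listed genes cut out (added after the data were seen) and ran from 0.254 to 0.649 without single libraries. The 6 members with peaks in both del/del libraries alone became 2 when at least 50% of the span had to be covered and 7 with lists of equal length. Without single libraries they were 6 to 7, but leaving out a library removes a condition, so this count could not fall. The local background rose to 2.06 in del/del and 2.097 in del/fl (from 1.55 and 1.57) as plain pileup over fold enrichment. This rise is not particular to the segment. The lowest value of any autosomal peak was 1.47 to 1.52 by the plain ratio, against 0.998 to 0.999 by the main formula. Pileup per 1000000 tags was 0.595 and 0.599 as a median over peaks (from 0.677 and 0.655), and 0.692 in del/fl with lists of equal length. With the stricter peaks the segment has no background or pileup value.

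limma's count of 0 became 96 with stricter peaks, 17 without the variance trend and 345 to 1438 without single libraries, where the lone library is assumed to vary like the others. It stayed 0 with wider spans and with autosomal genes only. The fit on all genes without a filter could not be made, as 25374 of 34800 are at 0 in every library. The cause of these changes in limma's count was not tested.

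Both groups use replicate numbers 1 and 2, and the labels do not say that a number marks a shared line. Deviations of same-numbered libraries from their group means had a correlation of 0.0971 over 9426 genes and 0.116 over the 8363 autosomal ones. Their autosomal peak numbers were close (17102 and 17564 for number 1, 26327 and 26637 for number 2). With 2 pairs, whether the numbers pair the libraries cannot be told, and the unpaired values are the ones reported. With the replicate block limma's count stayed 0. The segment difference of 27.8 and the flank difference of 0.452 cannot change under this block, since both groups hold the same replicate numbers. Their staying the same thus says nothing about pairing. With 2 libraries per group and weak peaks, small differences at single copies were not detectable.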
